A study of Homo sapiens with 6 samples.

Results

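KO2 is the line of HCT116 cells made with the second of the study's CRISPR guides against MUC3A, and it is compared here with the WT control cells, 2 libraries against 2. HCT116 is a human colorectal carcinoma cell line. The read counts of the 4 libraries were taken for all genes with at least 40 reads summed over them, which gave 12469 of the 15977 genes listed in the deposited tables. Cells were infected with lentiCRISPR v2 virus, which delivers Cas9 and a guide RNA, at a multiplicity of infection of 10 and then kept in puromycin at 2 µg/mL for 72 h. The labels give the WT samples the genotype wild type and the treatment negative control, and the KO2 samples the genotype MUC3A knockout. The protocol describes a scrambled control virus and the series text wild-type cells, so whether WT cells carried a virus is not settled by the labels. Nothing says whether the KO2 line was 1 clone or a mixed population. Separate cultures are not stated for the 2 libraries of a group either, so the p-values may reflect technical spread alone. The 2 libraries of KO1, the line made with the other guide, are also in the fit. They share in its scaling and in its estimates of the spread between libraries and of the difference between column prefixes described below.

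MUC3A encodes a large transmembrane mucin that lines the surface of intestinal epithelium, with a heavily glycosylated extracellular part and a short tail inside the cell. Cas9 cuts DNA where the guide pairs next to an NGG motif, and repair of the cut by end joining leaves small insertions or deletions that can shift the reading frame. A frameshift can abolish the protein while the transcript is still made and counted. The series title names the PI3K/Akt/mTOR pathway as the question behind the comparison.

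The KO2 guide has a single exact match among annotated transcripts, in the coding sequence of MUC3A exon 2 at chr7:100951917-100951936 (GRCh38, + strand, the strand of the transcript). Its site is shown because it is the sequence cut in KO2 cells by design, with the NGG motif in capitals.
KO2 guide site: ttctccacactccagagaccTGG
The exon is 8805 bases long and belongs to annotated transcripts of 12 and 11 exons. With up to 3 mismatches, RTRAF, which encodes an RNA-binding subunit of the tRNA ligase complex, was the 1 other gene matched, with 3 mismatches. RTRAF stood at 95.4 and 136 CPM (read counts scaled to library size and composition) in WT and at 109 and 132 CPM in KO2 and did not pass the test (adjusted p = 0.798 by edgeR).

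MUC3A transcript was at 52.3 and 25.7 CPM in the HCT and HCT116 libraries of WT and at 29.9 and 24.4 CPM in those of KO2. The fitted log2 fold change was −0.45 ± 0.18 (SE, n = 2 libraries per group) and missed the threshold (edgeR adjusted p = 0.195). The groups overlapped, because the HCT library of KO2 lay above the HCT116 library of WT. The log2 ratio was −0.80 between the HCT libraries and −0.07 between the HCT116 libraries. The call was gained, at an edgeR adjusted p of 7.09e-05, when the HCT116 library of KO2 was left out. Insertions and deletions need not lower a transcript, so these counts do not check the knockout label.

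Each group has 1 library whose column name starts with HCT and 1 that starts with HCT116, and the labels do not explain this prefix. Libraries that share it, called a set here, correlated across genes in log2 CPM at 0.972 (HCT set) and 0.976 (HCT116 set), against 0.920 between the WT libraries and 0.956 between the KO2 libraries. The set was therefore a term of the model, which lowered the biological coefficient of variation from 0.381 to 0.118. By edgeR's quasi-likelihood test at an adjusted p of 0.05, 635 genes changed in KO2, 5.09% of those tested. Of these, 279 rose (2.24%) and 356 fell (2.86%). The change exceeded 1 log2 unit for 137 genes that rose and 110 that fell. Without the set term edgeR called 0 genes, with 301 at an unadjusted p under 0.05, and DESeq2 called 43, all of them among the 635, so the other calls rest on that term in both tools. The called genes had a median absolute log2 fold change of 0.86, while 80% of all tested genes lay between −0.43 and 0.44 around a median of −0.02. All 635 had the same sign in both sets, as did 7434 of the 12469 tested genes. The test with the set term favours genes whose ratios agree, so this is no separate check of the calls. The plot of the ratios within each set shows how close the sets were gene by gene. In 457 of the 635 both KO2 libraries lay beyond both WT libraries, which held for 2495 of all tested genes (20.0%; 11.0% with KO2 higher and 9.04% with KO2 lower). Leaving out the HCT116 library of WT left 293 calls and leaving out the HCT116 library of KO2 gave 2184. In each of the 6 fits with 1 library left out, 189 of the 635 passed again, 91 higher and 98 lower. A gene named below as risen or fallen is one of these 189 unless a paragraph below names a library without which its call ended. In bulk RNA, fewer cells with a transcript and less transcript per cell cannot be told apart.

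**Figure D1:**
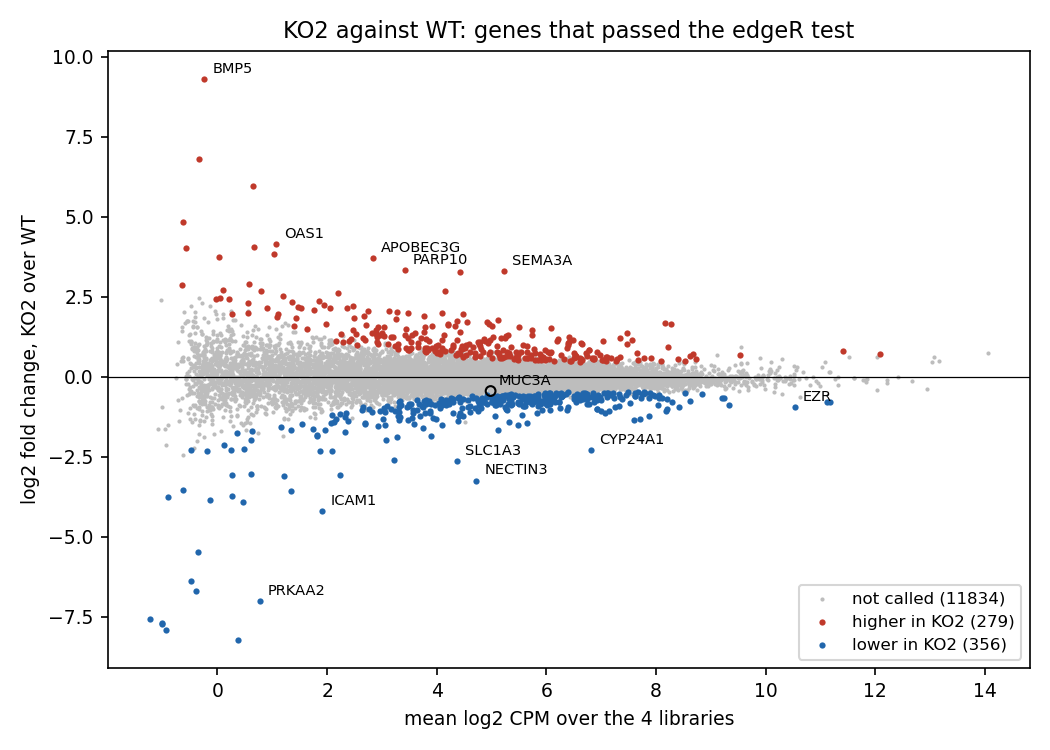
Log2 fold change of KO2 over WT (y axis) against the mean log2 CPM over the 4 libraries (x axis) for the 12469 tested genes. Genes that passed the edgeR test are coloured, 279 higher and 356 lower, and a few genes named in the text are labelled. Fitted values beyond 6 log2 units belong to genes with almost no reads in 1 group.

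**Figure D2:**
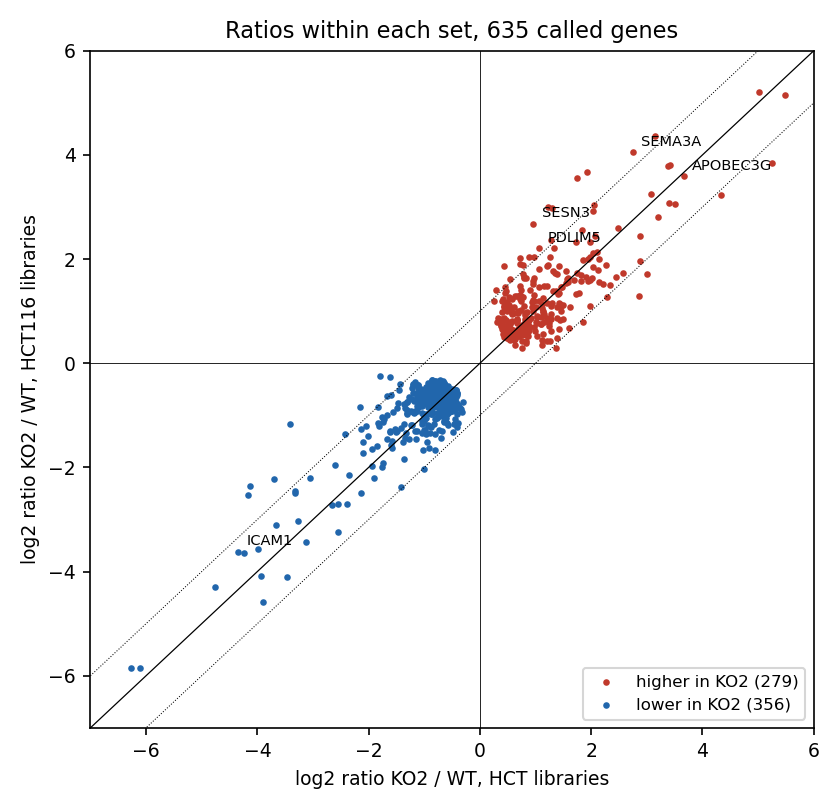
Log2 ratio of KO2 to WT between the HCT116 libraries (y axis) against the same ratio between the HCT libraries (x axis), 1 point for each of the 635 genes that passed. All points lie in the lower left or upper right quadrant, which the test with the set term favours. Of them 37 differ between the sets by more than 1 log2 unit.

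Interferon-stimulated genes were the list with the most genes that rose in KO2. Cells that sense foreign or displaced nucleic acids secrete interferons, whose receptors activate a complex of STAT proteins and IRF9 that switches on many effector genes through a DNA element called the interferon-stimulated response element. Of 44 interferon-induced effectors tested, 22 rose and 0 fell, against 2.24% and 2.86% of all tested genes. Of the 44, 43 had a positive log2 fold change, and the median was 0.65, against −0.02 over all tested genes. In 30 of the 44, both KO2 libraries lay above both WT libraries, which held for 11.0% of all tested genes. The list's median ratio was 0.70 in the HCT and 0.72 in the HCT116 set. The number that rose lay between 15, without the HCT116 library of WT, and 28 when 1 library was left out, and 14 effectors passed in all 6 such fits.

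The antiviral IFIT proteins bind foreign RNA. IFIT2 had 1.94 and 1.61 CPM in the WT libraries and 11.5 and 10.4 CPM in the KO2 libraries, 6.10-fold higher, with groups far apart. IFIT3 went from 1.87 and 3.30 to 11.8 and 11.3 CPM, or 4.66-fold. The OAS enzymes make the second messenger that activates RNase L. OASL, a family member without that activity, rose from 4.65 and 3.87 to 18.8 and 16.4 CPM (4.13-fold, log2 fold change 2.05 ± 0.23, SE, edgeR adjusted p = 0.000302). OAS3 rose 2.11-fold from a higher base, 59.6 and 58.6 CPM, and OAS1 from 12 reads in the WT libraries together to 268 in KO2. The mitochondrial interferon-induced protein IFI6 was near 29 and 23.8 CPM in WT and 85.2 and 69.3 CPM in KO2, and its log2 ratio was 1.55 in the HCT and 1.54 in the HCT116 set. Tetherin (BST2), which holds budding virus at the cell surface, rose 3.76-fold from 3.23 and 3.22 CPM. SAMD9, a restriction factor of poxviruses, rose 3.04-fold and IFI35 3.00-fold. In all of these genes both KO2 libraries stood above both WT libraries. ISG15, a ubiquitin-like modifier and the most abundant effector described here, stood at 94.3 and 184 CPM in WT and 153 and 266 CPM in KO2. Its rise of 1.53-fold was smaller and its groups overlapped, since the HCT116 library of WT exceeded the HCT library of KO2. The ISG15 call was lost without the HCT116 library of WT (edgeR adjusted p = 0.0736). MX1, a classical marker of interferon action, had 1.16 and 0.644 CPM in WT and 2.50 and 1.99 CPM in KO2 and missed the threshold (edgeR adjusted p = 0.133).

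**Figure D3:**
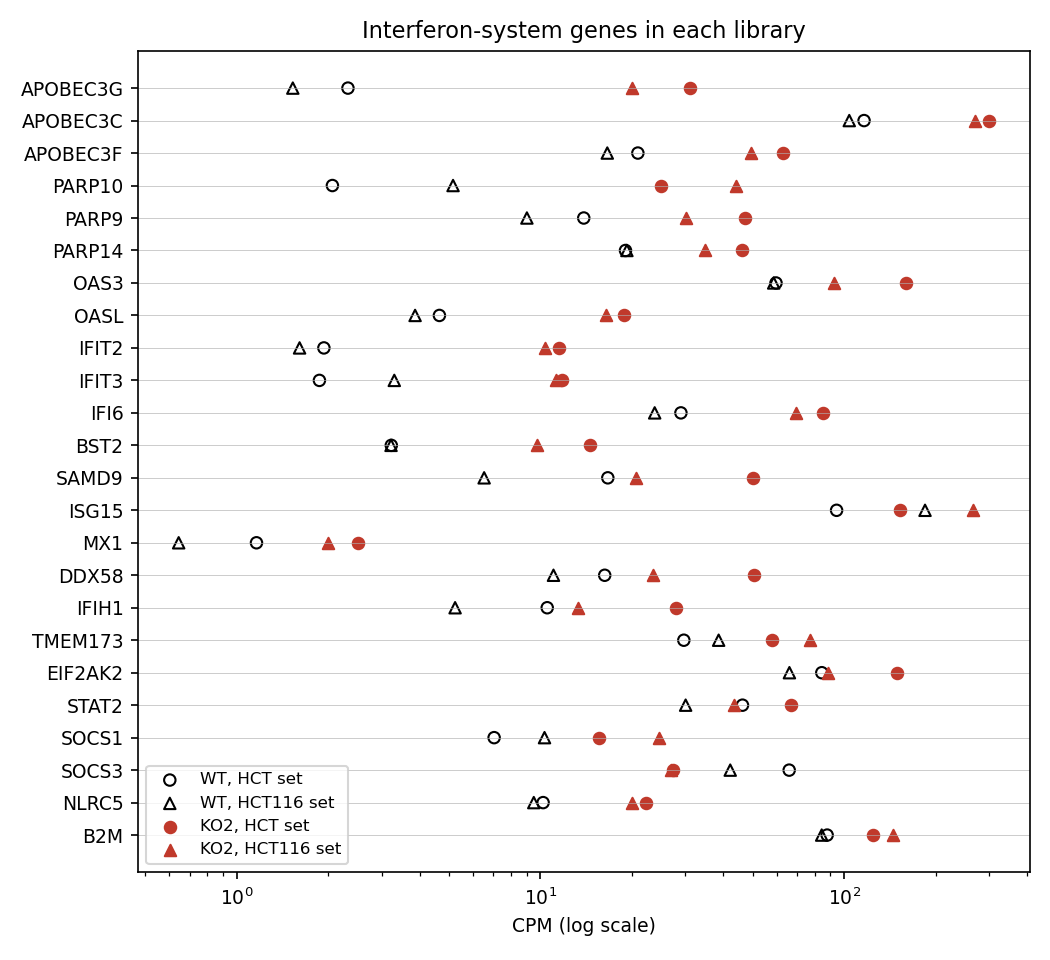
Level of interferon-system genes in each library (x axis, CPM on a log scale), 1 row per gene. Open symbols are WT and filled symbols KO2, circles the HCT set and triangles the HCT116 set. In APOBEC3G, PARP10 and IFIT2 the 2 groups are widely separated, while in ISG15 and STAT2 they overlap and the shift is seen within each set.

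The promoters of some interferon-system genes hold the letters of the interferon-stimulated response element. In the 250 bases before the start site (RefSeq, GRCh38.p14), the letters GAAA, any 2 bases and GAAA again were searched on both strands. It was found in 839 of 27305 promoters (3.07%) and in 204 of the 9831 tested genes whose symbol matched a promoter (2.08%). The 7 windows below hold a match in a gene that rose in KO2. The match is in capitals, each window is 60 bases, and it is printed on the strand of its gene.
IFIT1, chr10:89392495-89392554, + strand: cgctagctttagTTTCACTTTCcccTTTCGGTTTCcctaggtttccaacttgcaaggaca
IFI6, chr1:27672251-27672310, − strand: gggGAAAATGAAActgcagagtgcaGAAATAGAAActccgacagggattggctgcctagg
BST2, chr19:17405720-17405779, − strand: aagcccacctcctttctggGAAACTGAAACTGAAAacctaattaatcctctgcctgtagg
SAMD9, chr7:93118081-93118140, − strand: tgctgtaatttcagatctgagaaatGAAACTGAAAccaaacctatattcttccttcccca
PARP14, chr3:122680779-122680838, + strand: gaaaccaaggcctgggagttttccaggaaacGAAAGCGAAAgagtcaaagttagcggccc
IFIH1, chr2:162318685-162318744, − strand: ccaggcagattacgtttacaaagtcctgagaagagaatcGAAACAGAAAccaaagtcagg
SOCS1, chr16:11256283-11256342, − strand: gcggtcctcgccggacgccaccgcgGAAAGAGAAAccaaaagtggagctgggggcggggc
In IFIT1 the match reads on the opposite strand (TTTC, 2 bases, TTTC), and in BST2 2 matches share their middle. On the lists of interferon signalling, sensing, effectors, APOBEC3 and antigen presentation, 39 genes rose, and 28 of these had a promoter entry. Of the 28, 17 held a match (60.7%), as did 9 of the 41 with an entry that did not pass (22%). Among the 169 other genes with an entry that rose it was 5 (2.96%), near the share of all tested genes. Among the 267 with an entry that fell it was 3 (1.12%). OAS1, IFI35, PARP9, STAT2 and EIF2AK2 were among those that rose and had no match in this window. IFIT2, OASL, PARP10 and DDX58 were among those that rose and had no entry. These shares describe letters, not bound sites, and the motif was chosen after the calls were seen.

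Sensors of nucleic acids rose along with the effectors. Of 18 sensors and adaptors tested, 7 rose and 0 fell, against 2.24% and 2.86% of all tested genes. Their median log2 fold change was 0.39. RIG-I (DDX58), which detects viral RNA by its end, was at 16.3 and 11 CPM in WT and 50.4 and 23.4 CPM in KO2, 2.62-fold higher (log2 fold change 1.39 ± 0.21, SE, edgeR adjusted p = 0.00263). MDA5 (IFIH1), the sensor of long double-stranded RNA, rose 2.60-fold, from 10.5 and 5.24 to 27.9 and 13.3 CPM. The helicase gene DDX60L rose 2.46-fold, by 0.77 log2 units in the HCT and 1.89 in the HCT116 set. STING (TMEM173), the adaptor for cytosolic DNA, rose 1.98-fold, with 29.6 and 38.6 CPM in WT and 57.8 and 77.2 CPM in KO2 and log2 ratios of 0.96 and 1.0. The RNA-activated kinase PKR (EIF2AK2) rose 1.55-fold, but its call was lost without the HCT (edgeR adjusted p = 0.0627) or the HCT116 library of WT (0.0732). The number of sensors that rose was lowest, 4, without the HCT116 library of WT.

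Of 22 tested members of the receptor and JAK-STAT list, 3 rose and 1 fell (1 to 7 rose with 1 library left out, fewest without the HCT116 library of WT, most without the HCT library of KO2). Among all tested genes 2.24% rose and 2.86% fell. SOCS1, a feedback inhibitor of JAK kinases, rose 2.30-fold, from 7.04 and 10.3 in WT to 15.5 and 24.6 CPM in KO2. SOCS3, an inhibitor acting mainly below the IL-6 receptor family, fell 1.94-fold, from 65.9 and 42.1 to 27.3 and 27 CPM. STAT2, a transcription factor of that complex, rose 1.44-fold from 46.2 and 30.05 to 67 and 43.3 CPM, with overlapping groups, and its call was lost without the HCT116 library of WT (edgeR adjusted p = 0.267). The STAT2 call was also lost without the HCT library of WT (0.182) or either KO1 library (0.101 and 0.0664). The interferon receptor gene IFNAR1 did not pass the test, at 61.7 and 35.6 CPM in WT and 59.2 and 45.2 CPM in KO2. IFNE, which encodes the epithelial type I interferon epsilon, was the 1 interferon gene with enough reads to test. It had 7 and 16 reads in the WT libraries and 79 and 49 in the KO2 libraries, a rise whose call was lost without the HCT library of WT (edgeR adjusted p = 0.342).

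The APOBEC3 enzymes deaminate cytidine in single-stranded DNA and restrict retroviruses and retrotransposons. Of 5 tested, 4 rose, against 2.24% of all tested genes. APOBEC3G was at 2.32 and 1.53 CPM in WT and 31.1 and 19.98 CPM in KO2, 13.1-fold higher (log2 fold change 3.71 ± 0.26, SE, edgeR adjusted p = 7.08e-06). APOBEC3C was the most abundant of them and rose 2.59-fold, from 116 and 104 to 299.9 and 270.2 CPM, and APOBEC3F rose 2.97-fold, from 20.9 and 16.6 to 62.6 and 49.2 CPM. The 2 sets gave nearly the same ratio for all 3. APOBEC3H rose 2.82-fold from low counts, and its call was lost without the HCT116 library of WT (edgeR adjusted p = 0.310). APOBEC3B did not pass, at 13.4 and 19.8 CPM in WT and 11.7 and 17.3 CPM in KO2. These genes lie side by side in a cluster of related sequence, so reads may be split between them. Of 12 poly-ADP-ribose polymerases tested, 4 rose and 0 fell, and these 4 are already counted among the interferon-induced effectors that rose. PARP10 went from 2.07 and 5.16 to 24.9 and 44.1 CPM, and PARP9 rose 3.36-fold, PARP14 2.11-fold and PARP12 1.96-fold.

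Over all tested genes 2.24% rose in KO2. Class I antigen presentation was less covered, with 9 of 22 listed genes tested. Of these 3 rose (0 without the HCT116 library of WT, 7 without that of KO2): NLRC5, the transactivator of class I genes, 2.15-fold, the peptide-trimming protease ERAP1 2.25-fold, and beta-2 microglobulin (B2M) 1.56-fold. Without that library the 3 calls stood at an edgeR adjusted p of 0.0554, 0.0550 and 0.183. Markers of other cell types were low in both groups or overlapped: of leukocytes, 13 of 16 listed markers are in the table, their summed level was 27.1 and 30.8 CPM in WT and 23.5 and 29 CPM in KO2, and the pan-leukocyte gene PTPRC had 1 read in WT and 1 in KO2. Summed markers of fibroblasts were 65.4 and 43.9 CPM in WT and 67.5 and 55.4 CPM in KO2. Nearly all of this was COL1A1 (65.1 and 43.4 in WT, 66.1 and 54.1 CPM in KO2), and 4 of the 10 listed had 0 reads. Endothelial markers summed to 85.4 and 159 CPM in WT and 76.7 and 130 CPM in KO2. Those of the HEK293T packaging line summed to 117 and 151 CPM in WT and 112 and 142 CPM in KO2. Of 12 listed colorectal epithelial markers 8 were tested and 0 passed, and KRT8 stood at 3137 and 4411 CPM in WT and 2609 and 4667 CPM in KO2. The others were nearly or wholly unread. VIL1 had 3 and 0 reads in WT and 0 in KO2, CDH17 6 and 1 in WT and 7 and 0 in KO2, and LGALS4 and KRT20 had 0.

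Other innate immunity genes moved in both directions. CASP4, the inflammatory caspase that senses bacterial lipopolysaccharide, rose 2.48-fold, from 8.52 and 14.4 to 23.2 and 32.4 CPM. ICAM1, the leukocyte adhesion molecule and a standard NF-κB target, fell from 16.4 and 13.3 in WT to 0.678 and 0.961 CPM in KO2 (log2 fold change −4.20 ± 0.28, SE, edgeR adjusted p = 6.04e-06). In the NF-κB list 2 of 22 genes changed (9.09%, against 5.09% of all tested genes). ICAM1 was the 1 gene of 22 in the NF-κB list that fell (4 fell without the HCT116 library of KO2). The cytokine gene LIF was the 1 that rose, 1.45-fold, a call that was lost without the HCT library of WT (edgeR adjusted p = 0.132), the HCT116 library of WT (0.0999) or KO1 in the HCT set (0.0589). In that list NFKBIA, which encodes the inhibitor IκBα, was at 23.8 and 53 CPM in WT and 32.6 and 52.1 CPM in KO2 and did not pass, except without the HCT116 library of KO2 (edgeR adjusted p = 0.0209). TNFSF18, the ligand of the costimulatory receptor GITR, fell 8.56-fold, from 173 reads in the WT libraries together to 24 in KO2. BCL2L1, which encodes the survival protein BCL-XL, fell 1.84-fold, from 298 and 425 to 156 and 238 CPM.

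Several genes were read in 1 group and nearly silent in the other. BMP5, a bone morphogenetic protein, had 0 reads in WT and 112 and 67 in the KO2 libraries, at least 49.3-fold higher against a floor of 3 counts over the group. The sodium channel gene SCN9A went from 1 read in WT to 168 in KO2, a count ratio of 139 (95% exact interval 24.6 to 5520), and the lectin gene CLEC2B from 2 to 75 (31, interval 8.29 to 260.8). All 3 had 0 reads in KO1. In the other direction, the exonuclease gene EXO5 (48 reads in WT), the zinc finger gene ZNF595 (49) and the iron exporter gene ferroportin (SLC40A1, 43) had 0 reads in KO2, at least 19.3-fold, 19.8-fold and 17.3-fold lower. The tetraspanin-like gene TM4SF18 had 83 reads in WT and 2 in KO2 (count ratio 50.2, interval 13.5 to 421). In KO1, which is compared with the same WT libraries, TM4SF18 had 10 reads and SLC40A1 12, while EXO5 had 81 and ZNF595 58. AMP-activated kinase subunit PRKAA2 had 366 and 94 reads in WT and 4 and 0 in KO2. Intervals and floors cover counting error only.

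Among genes at a mean log2 CPM of at least 1 in the 4 libraries, DHRS2, a mitochondrial short-chain dehydrogenase, rose 9.64-fold, from 5.42 and 8.62 in WT to 58.7 and 74.1 CPM in KO2 (log2 fold change 3.27 ± 0.18, SE, edgeR adjusted p = 4.21e-06). SLC16A6, a monocarboxylate transporter, rose 6.44-fold, from 5.94 and 8.14 to 44.2 and 45 CPM. The axon repellent SEMA3A reached 157 and 92.9 CPM from 23.3 and 5.48 CPM, with a larger ratio in the HCT116 set (4.05 log2 units) than in the HCT set (2.75). The cytoskeletal adaptor PDLIM5, the most abundant of these, also rose more in the HCT116 set, by 2.22 against 1.06 log2 units. SLC6A20, a transporter of proline, rose 4.39-fold and the aldehyde dehydrogenase ALDH3A1 4.43-fold. The secreted protease kallikrein 5 (KLK5) rose 5.20-fold from 0.775 and 2.66 CPM.

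Of the large falls in genes at that mean level or above, SLC1A3, a glutamate and aspartate transporter, dropped from 66.1 and 39.5 in WT to 11.1 and 5.97 CPM in KO2 (log2 fold change −2.64 ± 0.16, SE, edgeR adjusted p = 4.24e-06). NECTIN3, an adhesion molecule of adherens junctions, fell 9.47-fold, from 111 and 60.5 to 12.7 and 5.49 CPM. CYP24A1, the enzyme that degrades active vitamin D, fell 4.91-fold, from 357 and 171 to 58.6 and 43.7 CPM. The formin DIAPH2, a nucleator of actin filaments, fell 8.43-fold and NAV3, a microtubule-binding protein, 5.04-fold. Ezrin (EZR), which ties the apical membrane to actin, was among the most abundant transcripts that fell, from 2343 and 1807 to 1028 and 1092 CPM. The lipid phosphatase PLPP3, the matrix protein thrombospondin 1 (THBS1) and RGS2, a brake on Gq signalling, fell 5.05-fold, 3.67-fold and 3.59-fold.

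**Figure D4:**
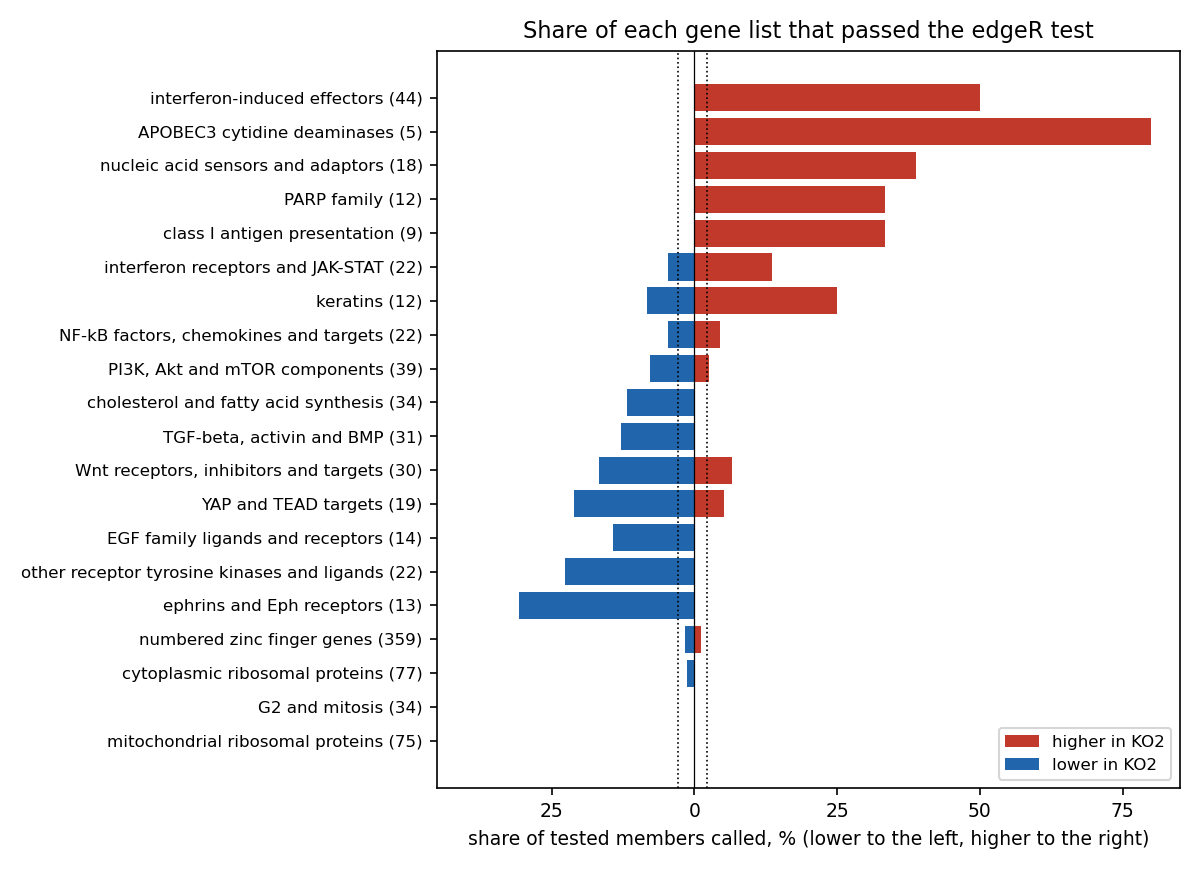
Share of the tested members of each gene list that rose (bars to the right) or fell (bars to the left) in KO2, in percent, with the number of tested members beside each name. The dotted lines mark the shares over all tested genes, 2.24% higher and 2.86% lower. Interferon-related lists extend to the right, and growth factor and guidance receptor lists to the left. Lists can share members, and the PARP genes that rose are also counted among the effectors.

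Epithelial structural genes changed in KO2 in part. Among all tested genes 2.24% rose and 2.86% fell. Of 12 keratins tested, 3 rose and 1 fell (3 fell without the HCT116 library of KO1 or the HCT library of KO2). KRT5, a keratin of basal and stratified epithelium, had 9 reads in WT and 182 in KO2, and KRT15, another basal keratin, rose 2.41-fold from 18.9 and 32.6 to 36.8 and 94 CPM. KRT7, a simple keratin of ducts, fell 6.07-fold, from 13.6 and 36.3 to 2.50 and 5.49 CPM. The abundant intestinal keratins KRT8, KRT18 and KRT19 overlapped between the groups, with log2 fold changes of −0.10, −0.15 and −0.03, and did not pass. Their ratios were negative in the HCT set (−0.27, −0.32 and −0.31) and positive in the HCT116 set (0.08, 0.04 and 0.24). DSC3, a desmosomal cadherin of stratified epithelium, rose 3.28-fold, from 14.1 and 11.6 to 50.3 and 34.9 CPM, and the crosslinking enzyme transglutaminase 2 (TGM2) fell 2.72-fold, from 99.95 and 67.8 to 38.5 and 23.7 CPM. Of 18 integrins and laminins, 3 fell and 1 rose (1 to 6 fell and 0 to 6 rose with 1 library left out). ITGB5, a subunit of a vitronectin receptor, fell 2.02-fold. ITGB8 and the laminin chain gene LAMB3 fell 2.73-fold and 1.72-fold, calls that were lost without the HCT library of WT (edgeR adjusted p = 0.207 and 0.132). The laminin chain gene LAMB1 rose 1.77-fold, and its call was lost without the HCT116 library of WT (0.159). The matrix proteoglycan versican (VCAN) fell 1.93-fold.

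Receptors and ligands of growth control were lower more often than higher. Over all tested genes 2.86% fell and 2.24% rose. Of 22 receptor tyrosine kinases and their ligands outside the EGF, FGF and ephrin families, 5 fell and 0 rose (2 to 11 with 1 library left out, lowest without the HCT library of WT), and the median log2 fold change was −0.37. The receptor AXL fell 1.72-fold, from 71.4 and 104 to 43.9 and 56.7 CPM, and its ligand GAS6 1.53-fold, a call that ended without the HCT116 library of WT (edgeR adjusted p = 0.210) or the HCT library of KO1 (0.0540). Of 13 ephrins and Eph receptors, which signal between touching cells, 4 fell and 0 rose (2 without the HCT116 library of WT). Ephrin B2 (EFNB2) fell 1.90-fold, from 89.8 and 50.1 to 48.7 and 25.5 CPM. The abundant receptor EPHA2 fell 1.73-fold, from 452 and 379 to 216 and 264 CPM, a call that ended without the HCT library of WT (edgeR adjusted p = 0.0690). Of 14 EGF family genes 2 fell and 0 rose (1 to 4 fell with 1 library left out, most without the HCT116 library of KO2). Amphiregulin (AREG), a ligand of the EGF receptor, fell 2.03-fold from 208 and 144 to 83.5 and 86.2 CPM. Epiregulin (EREG), a related ligand, fell 1.48-fold, but not past the threshold without the HCT116 library of WT (edgeR adjusted p = 0.261) or the HCT library of KO1 (0.0640).

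In the TGF-beta and BMP list 4 of 31 genes fell and 0 rose, against 2.86% and 2.24% of all tested genes. With 1 library left out, 2 (without the HCT library of WT) to 9 (without the HCT116 library of KO2) fell. BMP5, which rose, is not on that list. The inhibitory SMAD6, a feedback target of BMP signalling, fell 2.77-fold, from 20.7 and 18.7 to 6.05 and 8.44 CPM. The ligand BMP4, among the more abundant growth factor transcripts of these cells, was at 477 and 541 CPM in WT and 260.5 and 349 CPM in KO2, and its call was lost without the HCT library of WT (edgeR adjusted p = 0.153). In the Wnt list 2 of 30 rose and 5 fell (3 to 12 fell with 1 library left out, lowest without either WT library or the HCT library of KO1). The ligand WNT7B fell 3.06-fold, from 31.8 and 17 to 10.6 and 5.42 CPM, and NOTUM, a secreted enzyme that inactivates Wnt ligands, 2.35-fold. The secreted inhibitor DKK4 went the other way, from 4 reads in WT to 314 in KO2. AXIN2, a feedback inhibitor and standard Wnt target, had 30.5 and 54.1 CPM in WT and 79.3 and 66.7 CPM in KO2, and its call was lost without the HCT library of WT (edgeR adjusted p = 0.157) or of KO2 (0.0982). Of 19 YAP and TEAD targets, 4 fell and 1 rose (4 to 9 fell with 1 library left out), with a median of −0.37. The angiomotin family gene AMOTL2 fell 2.06-fold, from 104 and 72.3 to 46.3 and 38.3 CPM. Tissue factor (F3), the starter of coagulation and also on that list, fell 2.16-fold, while its inhibitor TFPI and the plasminogen activator PLAT rose 2.22-fold and 3.40-fold.

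Single genes of transcriptional control, from different lists, also fell. SOX4, a factor of progenitor cells, was at 383 and 254 CPM in WT and 159 and 93 CPM in KO2, 2.57-fold lower. The epithelial factor KLF4 fell 2.85-fold and its relative KLF2 2.09-fold, and the AP-1 subunit FOSL1 fell 1.82-fold. In KLF4 the log2 ratio was −2.15 in the HCT and −0.84 in the HCT116 set. KDM2B, a histone demethylase of Polycomb complexes, fell 1.89-fold, from 64.2 and 67 to 35.2 and 34.3 CPM.

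In the PI3K, Akt and mTOR list, the pathway of the study's title, 4 of 39 genes changed in KO2 (10.3%, against 5.09% of all tested genes), with a median log2 fold change of −0.05. Of the 4, 3 fell and 1 rose, and with 1 library left out 2 to 8 fell and 1 to 4 rose, the most falls without the HCT116 library of KO2 and the most rises without the HCT library of KO2. PIK3R1, which encodes the main regulatory subunit of PI3K, fell 2.45-fold. Its levels were 39.5 and 14 CPM in the HCT and HCT116 libraries of WT and 15.2 and 6.18 CPM in those of KO2, so the groups overlapped while the log2 ratios within sets were −1.37 and −1.16. SESN3, of the sestrin family of stress brakes on mTORC1, rose 3.27-fold in the fit, with ratios of 0.96 in the HCT and 2.68 in the HCT116 set. DDIT4, a stress-induced inhibitor of mTORC1, fell 1.88-fold, from 317 and 154 to 117 and 116 CPM, a call that ended without the HCT library of WT (edgeR adjusted p = 0.0700). FOXO1, a transcription factor that Akt keeps out of the nucleus, fell 1.88-fold, and its call was lost without the HCT library of WT (0.337), the HCT116 library of WT (0.0515), the HCT library of KO1 (0.0696) or the HCT library of KO2 (0.336), all edgeR adjusted p. The catalytic subunit gene PIK3CA stood at 28.9 and 10.3 CPM in WT and 26.3 and 15 CPM in KO2, AKT1 at 232 and 367 and 242 and 326 CPM, and MTOR at 105 and 89.3 and 107 and 86.8 CPM. These 3 did not pass the test, with log2 fold changes of 0.19, −0.05 and 0.00. PIK3CA passed, with a higher level in KO2, when the HCT library of KO2 was left out (edgeR adjusted p = 0.018). Protein phosphorylation, through which this pathway signals, was not measured.

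In 2 metabolic lists most genes were lower. For cholesterol and fatty acid synthesis 11.8% passed and for glycolysis and hypoxia 14.3%, against 5.09% of all tested genes. Of 34 genes of cholesterol and fatty acid synthesis, 29 had a negative log2 fold change, the median was −0.25, 4 fell and 0 rose. The falls numbered 3 without the HCT library of WT and 12 without the HCT116 library of KO2. Of 35 genes of glycolysis and hypoxia, 33 had a negative log2 fold change, the median was −0.32, 4 fell and 1 rose. The falls numbered 2 without either WT library and 21 without the HCT116 library of KO2. INSIG1, which holds the SREBP precursor in the endoplasmic reticulum, fell 1.97-fold, from 168 and 68.6 to 61.2 and 48.3 CPM. Fatty acid synthase (FASN) was at 3065 and 2839 CPM in WT and 1452 and 1969 CPM in KO2, but its call was lost without the HCT library of WT (edgeR adjusted p = 0.213). Hexokinase 2 (HK2), the entry enzyme of glycolysis, fell 1.73-fold within sets, with 145 and 45.7 CPM in WT and 74.8 and 29.9 CPM in KO2. The conjugate exporters ABCC2 and ABCC3 rose 2.19-fold and 2.18-fold, to 299 and 263 and 102 and 115 CPM. In the secretory pathway, the COPII coat gene SEC24D rose 2.76-fold with equal log2 ratios of 1.46 and 1.46 in the sets, and LMAN1, the cargo receptor of coagulation factors, rose 2.07-fold. The sialyltransferase gene ST6GAL1, whose product caps N-glycans, fell 2.32-fold, from 39.2 and 29.9 to 20.1 and 10.4 CPM.

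Several large housekeeping families were at or under the background share of 5.09% with all 6 libraries in the fit. Of other large families, histone genes (12.5%) and solute carriers (7.21%) were above it. Of 75 mitochondrial ribosomal proteins, 32 nuclear complex I subunits, 36 nuclear subunits of cytochrome oxidase and ATP synthase, 32 proteasome subunits and 50 RAB GTPases, 0 passed. Of 77 cytoplasmic ribosomal proteins 1 fell, RPL13. Of 359 numbered zinc finger genes 4 rose and 6 fell (2.79%), among them ZNF426, from 128 reads over the WT libraries to 10 in KO2. Of 34 genes of G2 and mitosis 0 passed by edgeR, and 32 of them had a negative log2 fold change, with a median of −0.04 in the HCT and −0.43 in the HCT116 set. Without the HCT library of KO2, many of these 34 genes fell, as did some mitochondrial and cytoplasmic ribosomal protein genes. RAB genes passed in both directions without the HCT116 library of KO2. The zinc finger genes that rose and fell numbered 19 and 24 without the HCT116 library of KO2, and 0 rose without the HCT116 library of WT. The 13 transcripts of the mitochondrial genome all had positive log2 fold changes, with a median of 0.57, and 2 passed (0 without the HCT library of WT, 9 without that of KO2). Of these MT-CYB was at 3482 and 3359 CPM in WT and 5775 and 5362 CPM in KO2, and its call was lost without the HCT (edgeR adjusted p = 0.172) or HCT116 library of WT (0.204). The mitochondrial share of all counts was 5.34% and 4.84% in WT and 8.90% and 6.95% in KO2, and its part in the other results was not tested.

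RPL13 lies in a stretch at the end of chromosome 16 where neighbouring genes were lower together. Of the last 40 tested genes of the chromosome in GENCODE gene order, 24 fell and 0 rose, 36 had a negative log2 fold change, and the median was −0.65, a level 1.57-fold lower in KO2. Their median ratio was −0.52 in the HCT and −0.70 in the HCT116 set. In the other 549 tested genes of chromosome 16, 18 rose and 14 fell and the median was 0.02, but these were not level along the chromosome. The highest median of 31 neighbouring genes was 0.38, and in the 225 tested genes around it, out to the nearest fallen gene on each side, 12 rose (5.33%, against 2.24% of all tested genes) and 160 had a positive log2 fold change, with a median of 0.13. NLRC5 and HAS3, described in other paragraphs, are among its genes that rose. The ends of that stretch were set by its own calls. PIEZO1, a mechanically gated ion channel, fell 2.36-fold, from 285 and 452 to 126 and 183 CPM. The ribosome-associated protein TCF25 fell 2.47-fold, from 234 and 467 to 105 and 169.9 CPM, and APRT, an enzyme of adenine salvage, 2.09-fold. MVD, an enzyme of cholesterol synthesis, and SLC22A31, a solute carrier, lie in the same stretch and fell 1.82-fold and 1.66-fold. FANCA, a subunit of the Fanconi anemia DNA repair complex, fell 1.83-fold, a call that ended without the HCT116 library of WT (edgeR adjusted p = 0.0598). RPL13 itself fell 1.73-fold, from 2412 and 3865 to 1292 and 2394 CPM, and its call was lost without the HCT (0.0622) or HCT116 library of WT (0.119). The stretch was delimited after its values were seen, and the count of falls there was 6 without the HCT116 library of WT. DNA copy number was not measured.

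**Figure D5:**
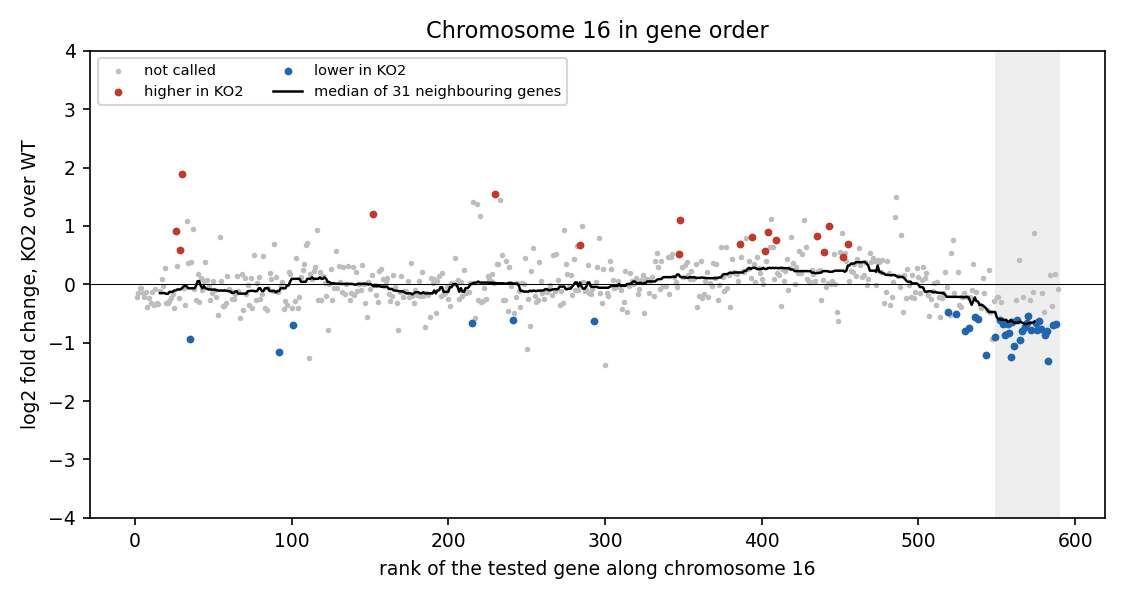
Log2 fold change of KO2 over WT (y axis) for the 589 tested genes of chromosome 16 in chromosomal order (x axis, gene rank from the short-arm end). Genes that passed the edgeR test are in colour, the line is the median of 31 neighbouring genes, and the shaded band marks the last 40 genes, of which 24 fell.

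The authors' deposited table of the same comparison gave 30 genes at its adjusted p under 0.05 and 255 at its unadjusted p. Their filtered list for KO2, at a p under 0.05 and a log2 fold change beyond 1, holds 247 genes, 128 higher and 119 lower. Of these, 225 were tested here with the same sign in all, and 212 passed (85.8% of their list, and 33.4% of the 635 called here).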

How the data were processed

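Poly(A) RNA of HCT116 cells was sequenced in 6 libraries, 4 of them compared here. Per the file headers, the authors' tables hold raw read counts per gene and library, and a log2 fold change, p-value and adjusted p-value per gene from their own comparison. STAR, HTSeq 0.6.0, DESeq2 and hg18 appear in the submitters' processing notes, with no role for any. Whether counting used strand was not given in the sources used here, and overlapping genes cannot be told apart. The other deposited per-library columns, 40 in all, were not used. Total counts were 14325699 and 13638724 in WT and 17830282 and 15277378 in KO2 (HCT, HCT116), where 3 counts equal 0.156 to 0.242 CPM. Within a group the counts differed far beyond sampling noise (chi-square over its degrees of freedom, 142 for WT and 91.5 for KO2), so neither pair is a copy.

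Counts of all 6 libraries were fitted with edgeR 4.0.16 (R 4.3.3): TMM scaling, group plus set, 2 residual degrees of freedom, glmQLFTest, Benjamini-Hochberg adjustment at 0.05. Columns carry no replicate number; deviations from the group means correlated at 0.832 between the WT and KO2 libraries of the same prefix, which is the pairing used. SE is the absolute log2 fold change over the square root of F and can understate counting error at few reads. CPM use TMM-scaled sizes; log2 CPM add a prior count of 2. DESeq2 1.42.0, limma 3.58.1 and other scalings and filters were alternatives. In most draws of simulated counts the fit called a larger share of false genes than the nominal one, so calls with an adjusted p near 0.05 are less certain. GENCODE 29 served for gene order and the guide match only, since the notes name another build.

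Members and the 76 gene lists were chosen with earlier results of these data known, and the lists described were picked from these after their counts were seen. Named genes are MUC3A, the 15 largest changes each way at a mean log2 CPM of at least 1 without overlap, the 10 most abundant calls each way, up to 5 calls per list by p, genes with at most 3 reads in 1 group and 40 in the other, the 8 calls that differ most between sets, and the first 3 tested members of a list (all where 12 or fewer). RTRAF, OAS3, BST2, SAMD9, IFI35, ISG15, MX1, NFKBIA, AKT1, MTOR, PIEZO1, TCF25, APRT and those of the closing section were added after values were seen. Some genes that the rule names are not reported here.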

Additional observations from a re-analysis of the deposited data

How the results depend on the processing

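The largest dependence is on the set term. Without this replicate block, edgeR called 0 genes in each direction and 0 in each list counted, the chromosome 16 stretch included. DESeq2 without the block called 43 genes (20 higher, 23 lower), with 7 interferon-induced effectors, 2 APOBEC3 genes, and 0 in each of the sensor, receptor tyrosine kinase, ephrin, Wnt and YAP lists and the chromosome 16 stretch. With the block, the other tools, scalings and filters gave 520 to 943 genes, and all 635 calls that were in a fit kept their sign there (634 under filterByExpr). With no filter beyond 1 read, 479 genes rose, 10 receptor tyrosine kinase genes fell and 7 YAP targets fell. With the WT and KO2 libraries alone, 7 YAP targets fell. With total counts only, 3 receptor tyrosine kinase and 3 Wnt genes fell. The 43 are all among the 635. Scaling moved the median of all genes by under 0.1 log2 units.

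With 1 library left out, 293 to 2184 genes were called, 114 to 969 higher and 179 to 1215 lower; the lone library of a group is then assumed to vary like the others. Calls of sensors ran from 4 to 11, effectors from 15 to 28, APOBEC3 genes from 3 to 4, receptor tyrosine kinase genes from 2 to 11, ephrins from 2 to 6, Wnt genes from 3 to 12, YAP targets from 4 to 9, and the chromosome 16 stretch from 6 to 26.

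The sign changed for genes that had not passed. KRT19 was at 0.019 by edgeR without the block, 0.0027 with total counts and 0.0028 by DESeq2 without the block, and MTOR at −0.00042 with the WT and KO2 libraries alone, −0.015 with RLE scaling or DESeq2 with the block and −0.013 by DESeq2 without it. With 1 library left out, log2 fold changes ran from −0.29 to 0.26 for KRT19, −0.29 to 0.15 for KRT8, −0.36 to 0.12 for KRT18, −0.032 to 0.061 for MTOR, −0.11 to 0.035 for AKT1, −0.10 to 0.42 for IFNAR1, −0.028 to 0.49 for NFKBIA and −0.21 to 0.69 for PIK3CA. The causes were not tested. Depth limits the genes with fewer than 10 reads in a group, whose fitted folds are imprecise.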

Other observations

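Some genes on none of the lists had calls that passed in each of the 6 fits with 1 library left out; they were chosen after their values were seen. NMI, a binding partner of STAT proteins, rose 3.50-fold in KO2, from 2.97 and 8.46 in WT to 15 and 20.6 CPM. APOL6, a gene of the apolipoprotein L family, went from 6 reads in the WT libraries together to 100 in KO2, and C1R, a protease of the complement system, rose 2.81-fold, from 6.52 and 6.20 to 18.4 and 17.4 CPM. The actin-associated protein palladin (PALLD) rose 3.16-fold, from 213 and 121 to 626 and 414 CPM. TFAP2A, a transcription factor of epidermis and neural crest, rose 3.16-fold, and HAS3, which makes hyaluronan, 2.00-fold.

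Among the falls of this kind, PRKDC, the catalytic subunit of the DNA-dependent protein kinase of end joining, went from 524 and 331 in WT to 254 and 172 CPM in KO2. The centromere chaperone gene HJURP fell 2.28-fold, the corepressor genes TLE1 and TLE3 fell 1.71-fold and 1.82-fold, and the membrane protein gene EMP1 fell 2.85-fold, from 99.4 and 57 to 28.3 and 24.8 CPM. The RNA-binding protein gene CPEB2 had 91 reads in WT and 7 in KO2, and the cell surface gene TENM3 114 and 11.

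Another 2 promoter motifs were searched in the same way after the calls were seen. The AP-1 element TGACTCA was in 3.55% of the promoters of genes that rose and 3.00% of those that fell, against 2.62% of tested genes. The sterol element TCACNCCAC was in 1.52% (3 of 197) and 0.375% (1 of 267), against 0.824%. So few promoters cannot tell a difference from none.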
